A study of Triticum aestivum with 24 samples.

Results

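The change in flag leaf transcripts between heading and grain filling was measured in well-watered plants of the bread wheat cultivar TAM 111, a winter wheat bred in Texas. The comparison took in every array whose title names TAM 111, a wet treatment and 1 of the stages, which gave 3 arrays at grain filling and 3 at heading, 6 of the 24 arrays in the series. The full design crosses the cultivars TAM 111 and TAM 112 with heading and grain filling and with wet and dry water treatments, at 3 arrays per combination, in greenhouse plants. All samples were flag leaves and the labels name no transgene or mutation. The labels give the water treatments as shares of field capacity without tying a share to wet or dry, and they give no day for a stage. Nothing in the labels says whether replicates came from separate plants, so each p-value is relative to the scatter of these arrays alone, part of which could be technical. Grain filling against heading in wet TAM 112 (6 arrays) and in dry TAM 111 (6 arrays) was used to set the change in wet TAM 111 against another cultivar and against less water, and neither shares an array with it.

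The flag leaf is the last leaf a wheat shoot makes, and at heading, when the spike emerges, it is the leaf that feeds the spike most. During grain filling it goes on exporting sugar, and as it ages the nitrogen held in its chloroplast proteins is broken down and moved to the grain. Fructan and starch act as carbon stores on the way, gibberellins control stem and leaf growth around heading, and glutathione-dependent enzymes remove reactive by-products of metabolism.

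RNA was hybridised to a wheat Affymetrix array, and each probe set has 1 MAS5 signal per array, a brightness on a linear scale that the authors had scaled so that every array has the same trimmed mean. The 6 arrays had median signals between 67.6 and 77.2, and between 49.6% and 52.2% of their probe sets lay above 69.0, the median over all arrays. Log2 signals correlated at 0.955 to 0.965 within a group and at 0.942 to 0.962 between the stages. Replicate 2 of each group stood apart: on the second principal component, which separated the cultivars, it lay at 4.05 at grain filling and 1.71 at heading, while the other wet TAM 111 arrays lay between 45.2 and 48.3 and the TAM 112 arrays between -51.4 and -29.5. The labels give both arrays as TAM 111, and whether they hold another cultivar's RNA, wholly or in part, was not tested; it bears on every value of wet TAM 111 and on the comparison with TAM 112. The counts below are therefore also given without these arrays. The actin control probe sets, whose 3′ over 5′ ratio is a sign of RNA or labelling quality, gave a ratio of 1.5 ± 1.26 at grain filling and 0.12 ± 0.264 at heading on the log2 scale (SD, n = 3 each) and did not overlap. The same ratio for the gapdh control was -2.43 ± 0.478 at grain filling and -1.44 ± 0.748 at heading and did not overlap either, in the opposite direction, and the ef1a ratio overlapped. The part of these ratios in the results was not tested.

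The labelled tissue was checked on named marker genes. All 7 photosynthesis genes exceeded a signal of 69.0 on every array of both stages. Of 19 grain protein genes, 3 did so on all 3 grain filling arrays (the avenin-like ALPb, the gliadin Gli-8 and the inhibitor WMAI-1) and 2 on all 3 heading arrays (ALPb and WMAI-1). The summed signal of the grain list without ALPb was 561.8 to 787.3 at grain filling and 439.9 to 653.9 at heading. Neither of 2 anther genes exceeded 69.0 on all arrays of either stage, with summed signals of 46.2 to 64.9 at grain filling and 28.8 to 94.9 at heading. The profilin PRO1 was the 1 gene that the list of pollen and anther markers fixed beforehand had matched, and it is counted here with the cytoskeleton genes. It was bright at both stages, at 27360 ± 3490 at grain filling and 26380 ± 3070 at heading (SD, n = 3 each).

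In wet TAM 111, a small share of flag leaf transcripts passed the test between grain filling and heading. Of 37516 probe sets tested (those above 69.0 on at least 3 arrays of the series), 1028 passed at an adjusted p below 0.05 in limma, which is 2.74%. The changes were nearly balanced, with 496 probe sets higher and 532 lower at grain filling. Most were moderate: the median size among those that passed was 0.88 on the log2 scale, or 1.84-fold, and 440 changed at least 2-fold (212 higher, 228 lower), 106 at least 4-fold (49 higher, 57 lower) and 23 at least 8-fold (8 higher, 15 lower). Over all tested probe sets the median size was 0.22, and 80.5% stayed under 0.5. A leaf sample mixes cell types, and fewer cells of a type cannot be told apart from less RNA per cell.

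The 3 arrays of each stage did not overlap for 7676 probe sets, or 20.5% of those tested, and for 1021 of the 1028 that passed. At an unadjusted p below 0.05 there were 5694, or 15.2%. The share that passed was larger among brighter probe sets: it was 0.411% of probe sets with a mean signal under 69.0 over the 6 arrays, 1.39% of those between 69.0 and 386, 4.88% of those between 386 and 5000 and 6.38% of those above 5000. The median size among those that passed ran the other way over the same classes, at 1.77, 1.36, 0.80 and 0.56 on the log2 scale. A group of 151 probe sets exceeded 69.0 on all grain filling arrays and on no heading array, and 28 of these passed. Another 125 exceeded it on all heading arrays and on no grain filling array, of which 24 passed. Both groups lie by definition within the 7676 that did not overlap, of which 1021 passed.

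**Figure D1:**
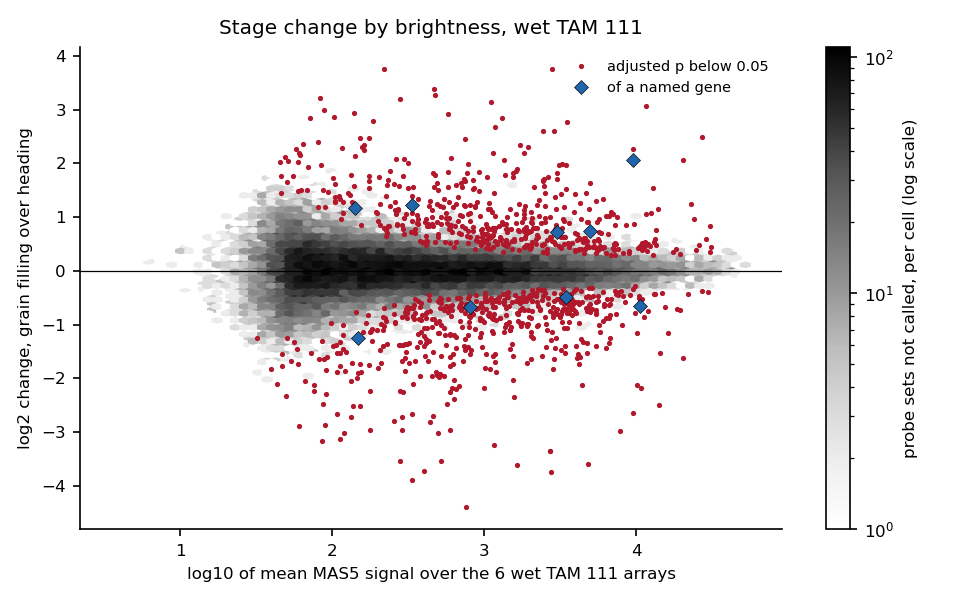
Log2 change (grain filling over heading, wet TAM 111, vertical axis) against the log10 mean MAS5 signal over the 6 arrays (horizontal axis). Grey cells count probe sets that did not pass, red points are the 1028 that did and blue diamonds are the 9 of named genes; the cloud narrows to the right, where the smaller changes that passed lie.

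Leaving out both arrays numbered 2 reduced the count to 238 probe sets, 86 higher and 152 lower, of which 229 were among the 1028. Leaving out a single array gave between 448 (without heading replicate 1) and 985 (without heading replicate 3); the counts were 520 without heading replicate 2, 511 without grain filling replicate 2, 544 without grain filling replicate 3 and 750 without grain filling replicate 1. A fit on the 6 arrays alone gave 536.

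The largest changes fell on probe sets with no gene name. Ta.3813.1.A1_at had signals of 1824, 7682 and 6228 at grain filling, against 264.7, 502.6 and 239.8 at heading, 13.5-fold higher (log2 3.76 ± 0.416 SE, adjusted p = 2.39e-05). Ta.23095.1.S1_at had 177.4, 504.2 and 585.1 at grain filling, against 20.4, 18.3 and 13.3 at heading (log2 3.75 ± 0.745 SE, adjusted p = 0.00687). In both, every grain filling array lay above every heading array, with replicate 1 the lowest at grain filling. Ta.4065.1.A1_at fell most, to 60.7, 70.5 and 44.3 at grain filling, against 1616, 1539 and 1221 at heading, 21.1-fold lower (log2 -4.40 ± 0.342 SE, adjusted p = 1.76e-07). Ta.1165.1.A1_at, which the platform annotation pairs only with a locus number, fell to 34.5, 7.32 and 44.6 at grain filling, against 1198, 321.6 and 394.0 at heading (log2 -3.90 ± 0.738 SE, adjusted p = 0.00443). Replicate 1 was high at heading for it, and every heading array lay above every grain filling array. Without the arrays numbered 2, Ta.3813.1.A1_at (adjusted p = 0.000506) and Ta.4065.1.A1_at (adjusted p = 4.3e-05) still passed, while Ta.23095.1.S1_at (log2 3.57, adjusted p = 0.105) and Ta.1165.1.A1_at (log2 -3.78, adjusted p = 0.0559) did not.

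Probe sets of 1 transcript cluster, which share the cluster number in their names, mostly had the same sign. The 753 probe sets with a cluster number that passed fell in 618 clusters. Of the 753, 449 had a tested companion in the cluster. Pairing each of the 449 with each companion gave 1180 pairings, of which 1034 had the same direction (87.6%), against 66.9% of all 14557 pairs within clusters. In 368 of the pairings the companion also passed in the same direction, and in 0 in the opposite one. A pair in which both passed enters the 1180, 1034 and 368 from each side, while the 14557 count each pair once. Companions can share sequence, so they are not independent measurements. Of 847 tested probe sets paired only with a locus number, 34 passed (12 higher, 22 lower; 2.74% of all probe sets passed), in 29 genes.

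Gene names were available for 102 genes, of which 78 were tested with 133 probe sets. Of these probe sets, 9 passed (5 higher, 4 lower; 6.77%, against 2.74% of all probe sets), in 7 genes. On each gene's brightest probe set, 2 genes passed: lgul was higher and LTP3 lower. The change of 65 of the 78 was under 1.5-fold, and 23 did not overlap between the stages (10 higher, 13 lower; 29.5%, against 20.5% of all probe sets). The other 24 named genes were not tested, since none of their 35 probe sets passed the filter, and their highest signal on the 6 arrays was 76.7. They comprise 14 of the 19 grain protein genes, 3 of the dehydration protection genes, 2 of the carbohydrate genes and 5 others.

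**Figure D2:**
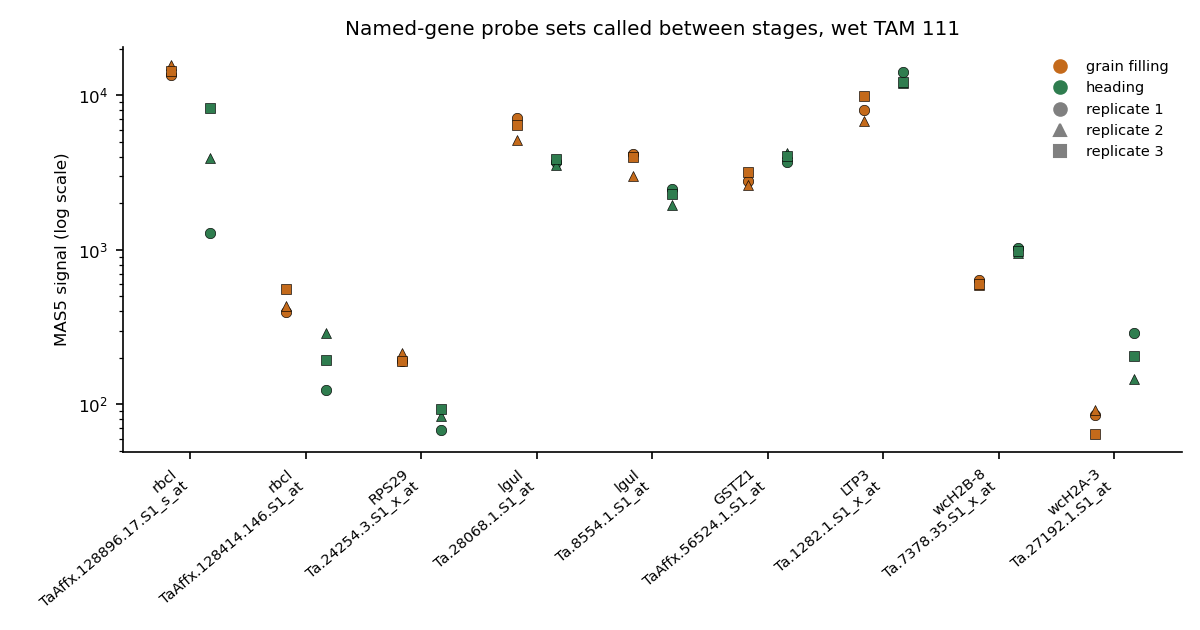
MAS5 signal (log scale, vertical axis) on each wet TAM 111 array for the 9 named-gene probe sets that passed, grain filling in orange and heading in green, 1 symbol shape per replicate. In every pair the 3 grain filling points lie on one side of the 3 heading points; the widest spread is that of the rbcl probe set at heading, from 1288 to 8240.

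The photosynthesis genes gave small values on their brightest probe sets. All 7 were tested, none passed on its brightest probe set, and their changes ran from -0.10 to 0.24 with a median of 0.04 on the log2 scale, against a median of 0.01 over all probe sets. PRK, the phosphoribulokinase of the Calvin cycle, had signals of 50520, 57110 and 48940 at grain filling, against 41970, 42320 and 48760 at heading (log2 0.24 ± 0.101 SE, adjusted p = 0.258). The stages of PRK were separated by a narrow gap, with grain filling replicate 3 and heading replicate 3 nearly level. FBP, the fructose bisphosphatase of the same cycle, averaged 15650 ± 497 at grain filling and 15220 ± 702 at heading (SD, n = 3 each). PsbO and PsbP, proteins of the water-splitting complex, averaged 34960 ± 1290 and 37230 ± 2250 at grain filling, against 35260 ± 3470 and 39930 ± 3590 at heading. The Rieske protein petC (log2 0.10) and the thioredoxin Trx-M (log2 -0.00) overlapped between the stages as well.

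The large subunit of Rubisco, rbcl, is made in the chloroplast, and the annotation pairs 12 tested probe sets with it, which disagreed. The brightest had 54780, 70810 and 45220 at grain filling, against 45580, 59970 and 58560 at heading (log2 0.04, adjusted p = 0.926). TaAffx.128896.17.S1_s_at rose to 13640, 15640 and 14460 at grain filling, against 1288, 3937 and 8240 at heading (log2 2.06 ± 0.488 SE, adjusted p = 0.0228), and TaAffx.128414.146.S1_at to 398.2, 432.5 and 560.5, against 123.6, 288.2 and 192.2 (log2 1.22 ± 0.313 SE, adjusted p = 0.0378). Of the 12, 4 were higher at grain filling without overlap and 0 lower, against 20.5% of all probe sets that did not overlap in either direction. A positive change was seen in 9, beside a median change of 0.01 over all probe sets. The 12 are paired with 1 gene and can share sequence, so they are not independent measurements. Neither of the 2 that passed did so without the arrays numbered 2 (log2 2.10, adjusted p = 0.158, and log2 1.54, adjusted p = 0.0617). Probe sets ending in s or x can bind several transcripts, and which copies these read cannot be told apart here.

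The carbohydrate genes showed no change that passed. Of 7 genes, 5 were tested, with a median of 0.23 and a range of -0.12 to 0.66 on the log2 scale. The median over all probe sets was 0.01. The fructan exohydrolase 1-FEH, which releases fructose from stored fructan, had 7092, 8397 and 7676 at grain filling, against 8250, 8696 and 8257 at heading (log2 -0.12 ± 0.129 SE, adjusted p = 0.725). The exohydrolase 6-FEH had 467.8, 744.3 and 936.4 at grain filling, against 676.3, 448.5 and 427.1 at heading (log2 0.44 ± 0.261 SE, adjusted p = 0.467). Both overlapped between the stages. AGP-S, the small subunit of the enzyme that makes ADP-glucose for starch, was level at 7288 ± 635 at grain filling and 7370 ± 352 at heading (SD, n = 3 each). AGA.1 (6585, 5934 and 6717 at grain filling, 5633, 5716 and 5082 at heading, adjusted p = 0.302) and the dim beta-amylase BMY1 (43.8 ± 8.87 at grain filling, 23.3 ± 3.23 at heading, adjusted p = 0.616) did not overlap. Of 4 glycolysis and sugar phosphate genes 0 passed; GAPN, a glyceraldehyde phosphate dehydrogenase, had 8527, 8401 and 9069 at grain filling, against 7160, 7266 and 7606 at heading (log2 0.24 ± 0.159 SE, adjusted p = 0.532).

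Among redox and detoxification genes, 1 of 6 tested passed on its brightest probe set (2.74% of all probe sets passed). It was lgul, the glyoxalase that uses glutathione to remove methylglyoxal, a toxic by-product of glycolysis. Its brightest probe set rose to 7142, 5172 and 6398 at grain filling, against 3708, 3529 and 3863 at heading, 1.67-fold higher (log2 0.74 ± 0.188 SE, adjusted p = 0.0348). Its second probe set had 4203, 3009 and 3965 at grain filling, against 2486, 1951 and 2308 at heading (log2 0.72 ± 0.176 SE, adjusted p = 0.0289). All 3 grain filling arrays exceeded all 3 heading arrays on both, although neither passed without the arrays numbered 2 (log2 0.83, adjusted p = 0.119, and log2 0.77, adjusted p = 0.103).

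GSTZ1, a zeta-class glutathione transferase that acts in tyrosine breakdown, moved the other way. Its probe set TaAffx.56524.1.S1_at fell to 2801, 2618 and 3171 at grain filling, against 3686, 4237 and 4050 at heading (log2 -0.48 ± 0.1 SE, adjusted p = 0.00997). Its other probe sets did not pass (log2 -0.37, adjusted p = 0.113, and log2 -0.47, adjusted p = 0.102). None of the 3 overlapped between the stages, and without the arrays numbered 2 the first did not pass (log2 -0.37, adjusted p = 0.222). CAT1, a catalase, was level at 31090 ± 1070 at grain filling and 32350 ± 4310 at heading (SD, n = 3 each). TaPrx1 had 11970, 11580 and 11820 at grain filling, against 10430, 8671 and 10600 at heading, which did not overlap and did not pass (adjusted p = 0.471). Its other probe sets overlapped between the stages (log2 0.26, 0.15 and 0.74, adjusted p = 0.554, 0.799 and 0.111).

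Of 5 tested defence genes, 1 passed on its brightest probe set (2.74% of all probe sets passed). The median was -0.43 on the log2 scale, against 0.01 over all probe sets. LTP3, a lipid transfer protein, fell to 8101, 6784 and 9874 at grain filling, against 14210, 12050 and 12270 at heading, 1.57-fold lower (log2 -0.65 ± 0.171 SE, adjusted p = 0.0428). The stages did not overlap, and without the arrays numbered 2 it did not pass (log2 -0.56, adjusted p = 0.308). Its dim other probe set overlapped (log2 -0.27, adjusted p = 0.803). PR5, a thaumatin-like pathogenesis-related protein, had 9074, 2554 and 3613 at grain filling, against 5528, 7453 and 13260 at heading (log2 -0.90 ± 0.4 SE, adjusted p = 0.279). For PR5 the spread within a stage was as large as the difference. Glc1, a beta-glucanase, was level (647.5 ± 101 at grain filling, 646 ± 97.3 at heading; SD, n = 3 each).

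The gibberellin oxidases were read by dim probe sets, and GA20ox1d and GA20ox1a had the lowest log2 values among the named genes' brightest probe sets. GA20ox1d, which makes the precursors of active gibberellins, had 19.5, 39.2 and 7.71 at grain filling, against 105.3, 120.5 and 100.9 at heading (log2 -1.94 ± 0.571 SE, adjusted p = 0.0721). GA20ox1a had 60.6, 5.92 and 64.5 at grain filling, against 184.8, 131.2 and 86.4 at heading (log2 -1.61 ± 0.642 SE, adjusted p = 0.214). Neither overlapped, and every grain filling signal lay below 69.0. GA20ox1b had 47.4, 7.52 and 60.3 at grain filling, against 113.7, 40.4 and 108.4 at heading (log2 -1.09, adjusted p = 0.304), with an overlap through heading replicate 2. The other GA20ox1d probe set, dimmer still, had 12.8, 16.5 and 16.5 at grain filling, against 23.0, 21.96 and 15.2 at heading, and overlapped (log2 -0.23, adjusted p = 0.84). With a pseudocount 4 times as large the first GA20ox1d probe set passed (log2 -1.20, adjusted p = 0.0467). WZF1, a zinc-finger protein, had 885.6, 1071 and 766.1 at grain filling, against 512.7, 490.1 and 768.8 at heading (log2 0.63 ± 0.359 SE, adjusted p = 0.441).

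Of 4 genes of methyl group and cell wall metabolism 0 passed. PEAMT1, the methyltransferase that starts choline synthesis, had 15860, 5710 and 10380 at grain filling, against 22690, 19060 and 20830 at heading (log2 -1.09 ± 0.321 SE, adjusted p = 0.0731). The stages did not overlap, and replicate 2 was the lowest at each. Its adjusted p was 0.467 without the arrays numbered 2 and 0.0219 at its lowest over the alternatives. COMT1, a methyltransferase of lignin synthesis, averaged 9378 ± 1590 at grain filling and 9326 ± 2050 at heading, and SAHH, which recycles the product of methyl transfer, 34580 ± 1600 at grain filling and 29920 ± 7460 at heading (SD, n = 3 each).

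Translation and chromatin genes passed on single probe sets only. RPS29, a protein of the small ribosomal subunit, rose to 189.9, 214.2 and 191.7 at grain filling, against 68.3, 83.6 and 93.2 at heading on Ta.24254.3.S1_x_at (log2 1.18 ± 0.217 SE, adjusted p = 0.00359). Its brighter probe set had 487.7, 208.6 and 382.6 at grain filling, against 86.5, 440.9 and 330.8 at heading (adjusted p = 0.767), so the probe sets of RPS29 disagree. Without the arrays numbered 2 the first had a log2 change of 1.14 (adjusted p = 0.0676). The cap-binding factor eIF4E-1 had 3305, 3503 and 3505 at grain filling, against 3973, 4111 and 4069 at heading (log2 -0.24 ± 0.0764 SE, adjusted p = 0.106), and TEF1, an elongation factor, 26120, 27400 and 27910 at grain filling, against 21330, 21990 and 25800 at heading (log2 0.24 ± 0.101 SE, adjusted p = 0.245). Both failed to overlap, each by a small margin relative to its level, and neither passed.

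The histones wcH2A-3 and wcH2B-8, which package DNA, each passed as lower on 1 probe set, of 15 chromatin probe sets tested (2.74% of all probe sets passed). That of wcH2A-3 fell to 84.6, 91.3 and 64.6 at grain filling, against 289.8, 146.0 and 205.5 at heading (log2 -1.26 ± 0.301 SE, adjusted p = 0.0246), and it alone of the 9 passed without the arrays numbered 2 (log2 -1.58, adjusted p = 0.0477). That of wcH2B-8 fell to 636.9, 595.4 and 601 at grain filling, against 1022, 960.4 and 979.2 at heading (log2 -0.68 ± 0.177 SE, adjusted p = 0.0393; without the arrays numbered 2, log2 -0.68, adjusted p = 0.232). The brightest probe sets of both overlapped (log2 0.09, adjusted p = 0.83, and log2 -0.12, adjusted p = 0.909). Histone genes form families of near-identical copies, so the copy each probe set reads is uncertain. Of 5 tested chromatin genes 0 passed on the brightest probe set.

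None of the remaining named genes described here passed. Protein folding and turnover had 4 tested genes and 0 that passed. FKBP70, a peptidyl-prolyl isomerase, had 5741, 7006 and 7071 at grain filling, against 7997, 9025 and 10840 at heading (log2 -0.49 ± 0.148 SE, adjusted p = 0.0825), and the small heat shock protein hsp16.9A was near the floor at 3.05 ± 0.288 at grain filling and 19.0 ± 13.4 at heading (SD, n = 3 each). Of the dehydration protection genes 2 were tested: LEA1, a late embryogenesis abundant protein, had 40.8, 75.5 and 76.2 at grain filling, against 42.2, 67.7 and 56.5 at heading (adjusted p = 0.925), and the dehydrin Rab15 averaged 81.9 ± 12.9 at grain filling and 110 ± 24 at heading (adjusted p = 0.786). APT1, which salvages adenine, had 6843, 7119 and 7159 at grain filling, against 8949, 9154 and 7497 at heading (log2 -0.27 ± 0.0827 SE, adjusted p = 0.0832). The 7 cytoskeleton genes ran from -0.20 to 0.31 on the log2 scale with none that passed; the alpha-tubulin TUBA averaged 7257 ± 312 at grain filling and 7056 ± 459 at heading, and the actin-binding profilin PRO1 27360 ± 3490 at grain filling and 26380 ± 3070 at heading. The proton pump ha1 was level at 26660 ± 674 at grain filling and 26690 ± 1580 at heading, 1 of 3 tested genes of ion transport and iron, of which 0 passed. The grain protein ALPb, bright at both stages, averaged 6750 ± 216 at grain filling and 6704 ± 670 at heading.

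**Figure D3:**
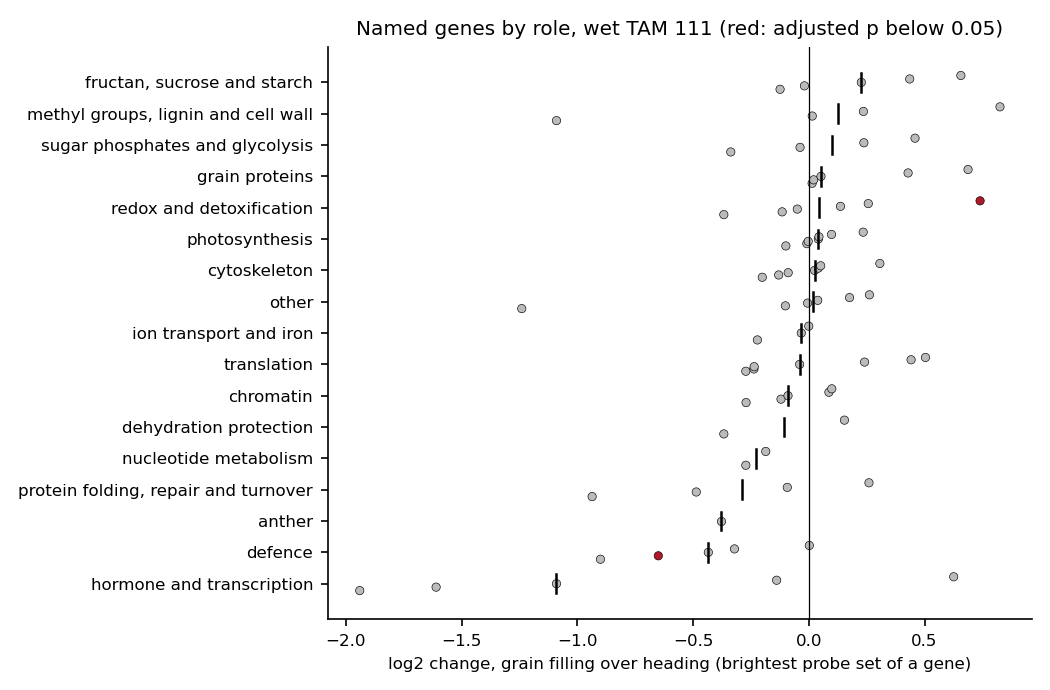
Log2 change (grain filling over heading, wet TAM 111, horizontal axis) of the brightest probe set of each of the 78 tested named genes, 1 point a gene, in 17 groups by role (vertical axis), with a bar at each group's median; red points passed. Photosynthesis and cytoskeleton genes lie close to 0, the gibberellin oxidases GA20ox1d and GA20ox1a lie lowest, and lgul and LTP3 are the red points.

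The stage change of wet TAM 111 was set beside that of wet TAM 112. In TAM 112, 1623 probe sets passed (4.33%). Both cultivars shared 569 that passed in the same direction, 262 higher and 307 lower, which is 55.4% of those of TAM 111 and 35.1% of those of TAM 112, and 2 passed in opposite directions. Of the 1028 probe sets of TAM 111, 984 had the same sign in TAM 112 (95.7%), against 64.4% of all probe sets. Those higher had a median change of 0.88 in TAM 111, against 0.68 in TAM 112, and those lower -0.88 in TAM 111, against -0.71 in TAM 112. Without the arrays numbered 2, the share with the same sign was 97.5% (232 of 238). A test of the difference between the cultivars passed for 0 probe sets (0%) in limma, with 1968 (5.25%) at an unadjusted p below 0.05; the median standard error of that difference was 0.36, so the 95% interval of a typical probe set is wider than a difference of 1.5-fold.

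Named-gene probe sets that passed in TAM 111 had the same sign in TAM 112, except those of RPS29 (log2 -0.06, adjusted p = 0.92) and rbcl TaAffx.128414.146.S1_at (log2 -0.36, adjusted p = 0.593). The unadjusted 95% intervals of the difference between the cultivars lay above 0 for both, at 1.24 (0.604 to 1.88) for RPS29 and 1.58 (0.661 to 2.5) for rbcl. Neither difference passed after adjustment (adjusted p = 0.885 for each). Both probe sets were singled out here by their opposite signs in the cultivars, so the intervals are not a separate test of a difference. In TAM 112, LTP3 averaged 7380 ± 1890 at grain filling and 11380 ± 1050 at heading (SD, n = 3 each, log2 -0.65, adjusted p = 0.031). Its difference between the cultivars was 0.00 (95% interval -0.50 to 0.51). The GSTZ1 probe set TaAffx.56524.1.S1_at averaged 2789 ± 50 at grain filling and 3865 ± 124 at heading (log2 -0.47, adjusted p = 0.00886), with a difference of -0.01 (-0.30 to 0.28). For lgul the TAM 112 value was 6354 ± 1600 at grain filling and 5101 ± 681 at heading (log2 0.29, adjusted p = 0.439). The difference between the cultivars was 0.45 (-0.10 to 0.999). On the second lgul probe set it was 0.52 (0.00292 to 1.04) and did not pass (adjusted p = 0.936). PEAMT1 had 14820 ± 8340 at grain filling and 26160 ± 1730 at heading in TAM 112 (log2 -1.01, adjusted p = 0.0782). On the brightest probe sets of the 78 named genes, 62 had the same sign in both cultivars (64.4% of all probe sets did), and 4 passed in TAM 112 (4.33% of all probe sets), all lower: LTP3, APT1, eIF4E-1 and the beta-tubulin Tubb5. On the brightest probe sets, Tubb5 had the lowest p in the test of the difference (0.70, adjusted p = 0.933), followed by eIF-2-beta (-0.29, adjusted p = 0.936), 1-FEH (-0.36, adjusted p = 0.941), BMY1 (1.42, adjusted p = 0.946) and LEA1 (1.24, adjusted p = 0.946). The dimmer GA20ox1d probe set had an unadjusted interval above 0 as well, at 2.01 (0.909 to 3.12), and did not pass (adjusted p = 0.885).

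**Figure D4:**
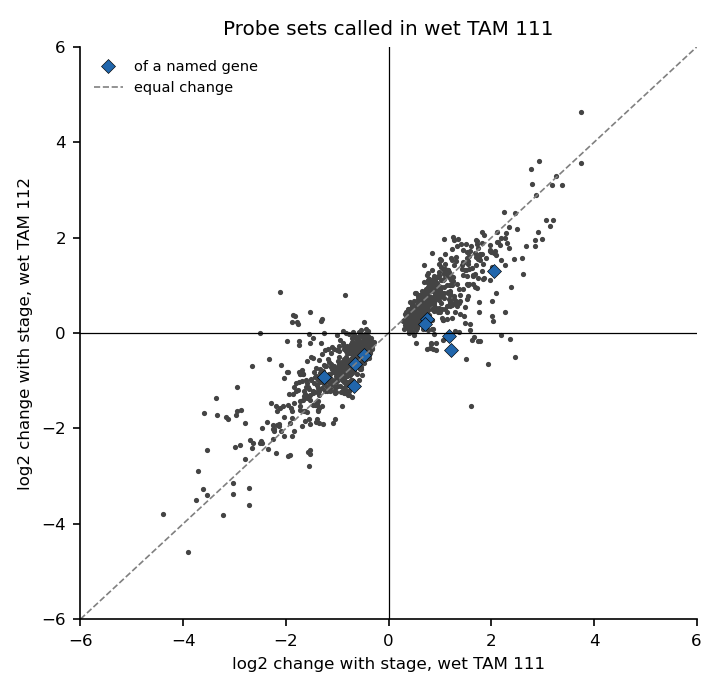
Log2 stage change in wet TAM 112 (vertical axis) against that in wet TAM 111 (horizontal axis) for the 1028 probe sets that passed in TAM 111, with named-gene probe sets as blue diamonds and a dashed line of equal change. Of the points, 984 lie in the quadrants of equal sign.

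In dry TAM 111 the stages differed in more transcripts, and 1152 of the changes differed between the water treatments. In wet leaves 1028 probe sets passed, against 6635 in dry leaves (17.7%). Of the 1028, 499 passed in the same direction in dry leaves (48.5% of the wet and 7.52% of the dry ones), 26 in the opposite direction, and 801 had the same sign (77.9%, against 59.7% of all probe sets). A test of the difference between the wet and the dry stage change passed for 1152 probe sets (3.07%), with 493 higher and 659 lower in wet leaves. Of these, 178 passed in wet and 952 in dry leaves, 54 of them in both, and the dry change was the larger in 928; the median size was 0.28 in wet and 0.88 in dry leaves. The count was 426 without the wet arrays numbered 2 and 174 without the 3 TAM 111 arrays that lay between the cultivars (heading replicate 2 in wet and dry, grain filling replicate 2 in wet). It also moved by over 1.5 times on leaving out single arrays, with 456 without dry grain filling replicate 2, 566 without dry grain filling replicate 1, 610 and 710 without wet heading replicates 1 and 2, 638 and 743 without dry heading replicates 2 and 3, and 699 without wet grain filling replicate 1.

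Of the 78 named genes, 22 passed on the brightest probe set in dry leaves (8 higher, 14 lower; 17.7% of all probe sets passed), and the difference passed for 9 (3.07% of all probe sets). LEA1, with a change of 0.15 in wet leaves, rose in dry leaves to 1668, 1618 and 1029 at grain filling, against 126.3, 35.0 and 74.5 at heading (log2 4.11, adjusted p = 6.52e-06), a difference of -3.95 ± 0.675 SE (adjusted p = 0.00312). The fructan exohydrolase 1-FEH, at -0.12 in wet leaves, rose to 16840, 15380 and 13990 in dry grain filling leaves, against 7534, 9276 and 7708 in dry heading leaves (log2 0.92), a difference of -1.04 ± 0.183 SE (adjusted p = 0.00363). COMT1, at 0.01 in wet leaves, rose to 13590, 13490 and 13590 there, against 6001, 5175 and 6936 (log2 1.18), a difference of -1.16 ± 0.22 SE (adjusted p = 0.00618). In these 3 genes dry grain filling leaves exceeded all other TAM 111 arrays, while the wet arrays of the stages overlapped.

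The difference ran in the other direction for 1 photosynthesis gene and 1 glycolysis gene, the members of their groups for which it passed on the brightest probe set. PRK, with a change of 0.24 in wet leaves that did not pass, fell to 37600, 33250 and 34560 in dry grain filling leaves, against 45560, 47130 and 47940 in dry heading leaves (log2 -0.42, adjusted p = 0.00618), a difference of 0.65 ± 0.143 SE (adjusted p = 0.015). Pgk-1, a phosphoglycerate kinase, was level in wet leaves at 23520 ± 1700 at grain filling and 24110 ± 670 at heading (SD, n = 3 each). In dry leaves it fell to 15200, 14700 and 17850 at grain filling, against 27330, 27380 and 30710 at heading (log2 -0.84), a difference of 0.80 ± 0.209 SE (adjusted p = 0.0372). The sign of PRK thus differed between the water treatments. With quantile normalization the PRK difference was 0.32 and did not pass (adjusted p = 0.267).

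The glyoxalase lgul, at 0.74 in wet leaves, was bright at both stages in dry leaves, with 5931, 5309 and 7146 at grain filling, against 6839, 6890 and 8125 at heading (log2 -0.26, adjusted p = 0.402), a difference of 0.99 ± 0.265 SE (adjusted p = 0.0424). The RPS29 probe set that rose in wet leaves had 70.7, 104 and 89.5 at grain filling in dry leaves, against 108.5, 98.1 and 114.9 at heading, a difference of 1.44 ± 0.308 SE (adjusted p = 0.0127). Its wet grain filling arrays were thus the highest of all TAM 111 arrays. On the other probe set of each gene the difference did not pass. It was 0.68 for lgul (adjusted p = 0.15) and 0.31 for RPS29 (adjusted p = 0.716). LTP3 was lower at grain filling in dry leaves too (log2 -0.94, adjusted p = 0.000605). Over the alternatives tried, the differences of LEA1 and 1-FEH passed under all 23 and that of COMT1 under 22, while those of lgul and Pgk-1 passed under 9 and 8. PRK passed under 18 and the GSTZ1 probe set under 16.

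**Figure D5:**
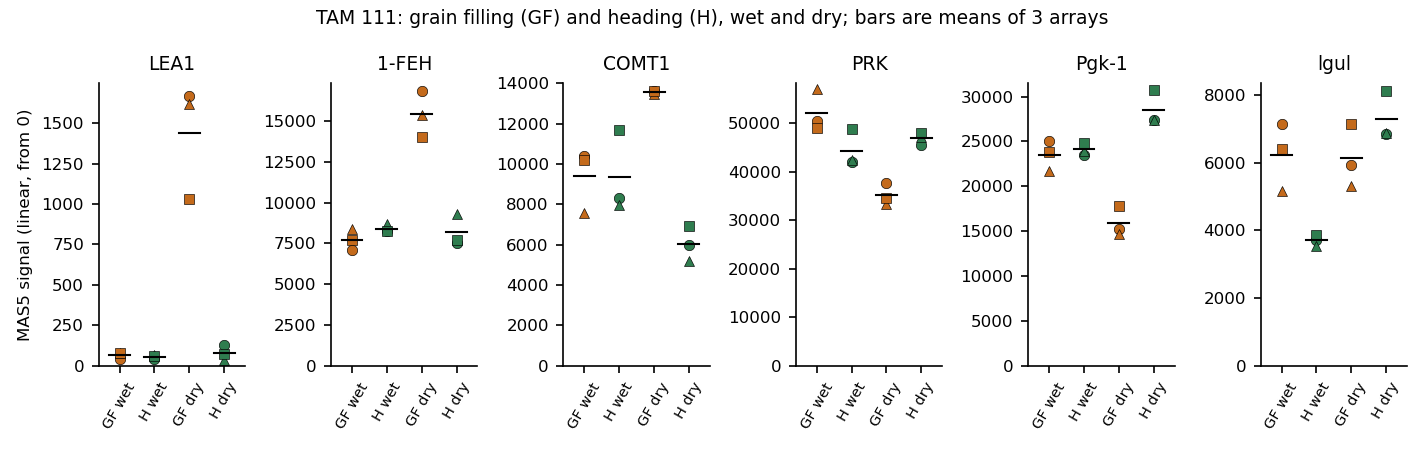
MAS5 signal (linear scale from 0, vertical axis) of 6 named genes on each TAM 111 array, in the order wet grain filling (GF), wet heading (H), dry grain filling and dry heading, with bars at the means of 3 arrays and 1 symbol shape per replicate. LEA1, 1-FEH and COMT1 are highest in dry grain filling leaves, PRK and Pgk-1 lowest there, and lgul lowest in wet heading leaves.

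The probe sets that changed with stage were also read against the effect of water in TAM 112, whose arrays are not in the stage contrast but enter the filter and the shared estimate of spread. At heading, 1351 probe sets passed between dry and wet TAM 112 (3.6%), and of the 1028, 87 changed in the direction of their stage change and 46 against it. At grain filling, 11869 passed (31.6%), and 240 changed in the direction of the stage change and 344 against it. Of the 496 that rose with stage in wet TAM 111, 104 were higher and 199 lower in dry than in wet TAM 112 at grain filling. Of the 532 that fell, 136 were lower and 145 higher. Passing or not, 581 of the 1028 had the sign of their stage change in the water effect at heading (56.5%, against 48.4% of all probe sets). At grain filling 464 had it (45.1%, against 51.0%). The directions of the 11869 as a whole are not given here, and whether these splits are particular to the stage probe sets was not tested.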

How the data were processed

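Flag leaf RNA was measured on 24 wheat Affymetrix arrays in 8 groups of 3. The deposited values are linear intensities (MAS5 signals) per probe set, made by the authors with MAS5 per the submitters' processing notes; a check of the files put the 2% trimmed mean at 500.1 on every array. Of 61290 probe sets, 111 controls were left out. Log2(signal + 11.7) was taken, 11.7 being the 20th percentile, and 37516 probe sets (61.3%) above 69.0 on at least 3 arrays were tested. A model with 1 mean per group over all 24 arrays was fitted with limma 3.58.1 (R 4.3.3; trended empirical Bayes moderation), p-values were adjusted by Benjamini-Hochberg, and a probe set passed below 0.05. Folds are on that log2 scale and understate dim changes. Nothing gives a read depth; the number of arrays limits precision. Scripts were tested on simulated data.

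The platform annotation pairs 1273 probe sets with 771 genes (770 found in RefSeq of assembly IWGSC CS RefSeq v2.1), and 102 genes have more than a locus number; 59906 probe sets are unnamed. The brightest probe set stands for a gene. Named by rule were genes that passed on it, the 5 of lowest p for each difference, up to 4 per gene list, and the 2 unnamed probe sets of largest rise and fall; genes with any other passing probe set, and further members of the roles, were added after their values were seen. Members and lists were chosen with earlier results of these data known. Alternatives covered pseudocount, filter, quantile normalization, array weights, variance trend, arrays fitted, replicate block and single arrays left out.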

Additional observations from a re-analysis of the deposited data

Results flagged for a closer look

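The stage change of TAM 111 differed between wet and dry leaves for 1152 probe sets in a test of the difference itself (limma, adjusted p below 0.05), or 3.07% of those tested, and 12 of the 133 named-gene probe sets were among them. Values are the wet minus the dry log2 change. A negative one means a smaller rise or a larger fall in wet leaves, or a fall there against a rise in dry leaves. Passing or not, the wet and the dry change had opposite signs in 754 of the 1152. LEA1 stood at -3.95, COMT1 at -1.16, PIMT, a protein repair methyltransferase, at -1.14, the beta-glucanase Glc1 at -1.12, 1-FEH at -1.04 and the GSTZ1 probe set at -0.62. On the positive side stood the RPS29 probe set at 1.44, lgul at 0.99, Pgk-1 at 0.80, PRK at 0.65 and both probe sets of the elongation factor TEF1 at 0.55 and 0.52. The 3 TAM 111 arrays that lay between the cultivars bear on this count, which was 174 without them; LEA1 and 1-FEH still passed there. Of the 23 alternatives, the differences of PIMT and Glc1 passed under 8 each and those of TEF1 under 8 (0.55) and 9 (0.52). The difference did not pass on the other GSTZ1 probe sets, at -0.06 and -0.18 (adjusted p = 0.905 and 0.74). Nor did it on the other probe set of RPS29, at 0.31 (adjusted p = 0.716), or of lgul, at 0.68 (adjusted p = 0.15).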

How the results depend on the processing

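The count of 1028 stage changes stayed within 1.5 times under 7 alternatives (768 with no filter to 1329 with a filter at the 75th percentile) and moved to 643 with no variance trend, 536 with only the 6 arrays compared and 238 without both arrays numbered 2, where the share that rose was 36.1% against 48.2%. It ranged from 448 to 985 with single arrays left out. The count of 1152 differences from dry leaves moved to 2518 with array weights, 623 with no variance trend, 426 without both wet arrays numbered 2 and 174 without the 3 intermediate arrays (an alternative chosen after seeing the data), and ranged from 456 to 1403 with single arrays left out. The count of 0 differences from TAM 112 stayed 0 except with single arrays left out, where it ranged from 0 to 2 (2 without wet TAM 111 grain filling replicate 1). Same-numbered arrays of the stages correlated at 0.0608, 0.215 and 0.0203 in their deviations, against means of -0.0259, -0.115 and -0.00639 with the other numbers. Number 2 also correlated between wet and dry heading, at 0.183 against -0.1. The deviations are from means of 3 arrays, so a higher value for the same number forces a lower mean with the other numbers. Those means are therefore no separate baseline. What the arrays numbered 2 share was not tested. The numbers were not taken as pairs, and with a replicate block the counts were 1233, 1581 and 0. Of 13 described probe sets that passed with stage, 11 did not pass under some alternative and 0 reversed; of 63 that did not pass, 6 passed under some alternative and 22 changed sign without passing. The causes were not tested. Dim probe sets passed less often: under a mean signal of 69.0, 0.411% passed, against 6.38% above 5000.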

Other observations

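Among the array's control probe sets, which were left out of the fit, 2 of the 3 for ubiquitin did not overlap between the stages. Of all tested probe sets, 20.5% did not overlap. All control probe sets for the other wheat genes examined with ubiquitin overlapped. The 3′ ubiquitin probe set had 24460, 22250 and 21870 at grain filling, against 17790, 19500 and 20230 at heading, and the 5′ probe set had 36580, 33700 and 30840 at grain filling, against 27480, 30780 and 27620 at heading. The middle ubiquitin probe set overlapped, at 25130 ± 2720 at grain filling and 22690 ± 2860 at heading (SD, n = 3 each). The 3′ sucrose synthase control averaged 3264 ± 522 at grain filling and 2720 ± 342 at heading, which overlapped.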
